A study of Rattus norvegicus with 4 samples.

Results

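The genes described here are 7 aquaporin genes (Aqp1, Aqp2, Aqp3, Aqp4, Aqp6, Aqp7 and Aqp11) and Avpr2, the gene of the vasopressin V2 receptor. They were taken by symbol from the array's annotation and are 8 of the 14217 genes that the array measures, covered by 12 of its 31099 probe sets. The arrays measured messenger RNA of kidneys from male Wistar rats of 300 to 480 g, in an ex vivo model of transplantation after donation by cardiac death. All kidneys stayed in the dead donor for 29 min of warm ischaemia. A pump then drove cold University of Wisconsin solution, an organ preservation fluid, through them for 3 h.

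Kidneys of the heparin group had low molecular weight heparin at 10 IU/ml in this cold perfusate and in the warm, oxygenated Krebs-Henseleit buffer, a modified salt solution, that ran through them for the next 30 min. Kidneys of the PPS group were handled in the same way with 10 IU/ml of PPS, an abbreviation that the labels do not spell out. The warm group had both perfusions without a supplement, and the cold group had the cold perfusion alone. Every group, the cold one included, therefore carried the ischaemia and the cold storage, and no kidney taken fresh from a living animal served as a control. Each group was 1 array. Its RNA was pooled in equal molar amounts from 3 kidneys, chosen in each group as those with the best RNA. With 1 array per group no difference below has a replicate check or a p-value, and pooling hides how much single kidneys varied.

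Aquaporins are membrane channels for water, and the aquaglyceroporins among them, Aqp3 and Aqp7, also pass glycerol. In the collecting duct, vasopressin binds the V2 receptor on the basolateral side of principal cells, cyclic AMP and protein kinase A are activated, and vesicles that carry aquaporin-2 fuse with the apical membrane. Water then leaves the cell through aquaporin-3 and aquaporin-4 on the basolateral side, and vasopressin also raises the transcription of Aqp2 through the cyclic AMP response element of its promoter. The proximal tubule takes up most of the filtered water without this hormone, through aquaporin-1.

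The upstream windows of Aqp2, the vasopressin-regulated channel, and of Aqp4, the member that differed most between arrays, are shown because the 2 genes serve the same cell and gave different values. They are RefSeq sequences of the rat assembly GRCr8, from 250 bases before to 50 bases after each annotated start, read on the gene's strand, and Aqp4 has 2 such starts. Capitals mark matches to the motifs searched. The Aqp2 window lies at chr7:132590036-132590335 on the plus strand, and the Aqp4 windows lie at chr18:6797877-6798176 and chr18:6798793-6799092 on the minus strand.
Aqp2: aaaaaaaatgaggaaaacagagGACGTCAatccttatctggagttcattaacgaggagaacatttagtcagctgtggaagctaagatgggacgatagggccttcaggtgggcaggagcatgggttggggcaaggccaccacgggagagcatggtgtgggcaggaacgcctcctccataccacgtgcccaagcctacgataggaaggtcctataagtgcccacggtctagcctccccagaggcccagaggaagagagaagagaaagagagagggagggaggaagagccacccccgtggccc
Aqp4, first window: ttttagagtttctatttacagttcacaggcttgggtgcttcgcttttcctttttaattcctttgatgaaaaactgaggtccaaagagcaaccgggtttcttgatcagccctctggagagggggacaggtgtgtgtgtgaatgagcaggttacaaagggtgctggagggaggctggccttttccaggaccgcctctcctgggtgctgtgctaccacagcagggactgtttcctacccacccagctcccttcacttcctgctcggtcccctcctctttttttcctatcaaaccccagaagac
Aqp4, second window: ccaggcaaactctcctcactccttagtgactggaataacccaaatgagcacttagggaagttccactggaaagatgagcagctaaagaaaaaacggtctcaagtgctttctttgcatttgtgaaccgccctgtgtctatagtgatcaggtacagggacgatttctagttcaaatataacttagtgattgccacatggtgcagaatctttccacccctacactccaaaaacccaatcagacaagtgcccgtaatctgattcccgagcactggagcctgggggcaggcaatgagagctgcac
The windows were searched on both strands for TGACGTCA, the full cyclic AMP response element, for its last 7 letters GACGTCA, for the half-site TGACG and for TGANTCA, the AP-1 site. The full element was absent from the Aqp2 window. GACGTCA was added to the search after the sequence had been seen, so its match there is not a test. That window held GACGTCA once, starting 228 bases before the start site, and its only half-site match overlapped GACGTCA on the other strand. GACGTCA was found in 3.22% of 33469 windows of the same length, the full element in 1.83%, the half-site in 21.2% and the AP-1 site in 7.33%. Promoter windows were matched for 7 of the 8 genes, all but Aqp7, and no other of these 8 windows held any of the 4 motifs. A match is a description of the letters and shows no binding.

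Values are log2 expression values as the authors deposited them, made with GCRMA, which corrects the background of Affymetrix probes and gives the arrays nearly the same distribution. Values were raised to a floor of 4.51, the 50th percentile of all values, because GCRMA sets little-expressed probe sets to a shared lowest value of 2.11. A difference of at least 1 on the log2 scale, 2-fold, is called past the size limit. Of the 8 genes, 7 were above the floor on all 4 arrays and Aqp6 was above it on none. Levels of different genes are not compared, since probe sets differ in brightness.

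**Figure D1:**
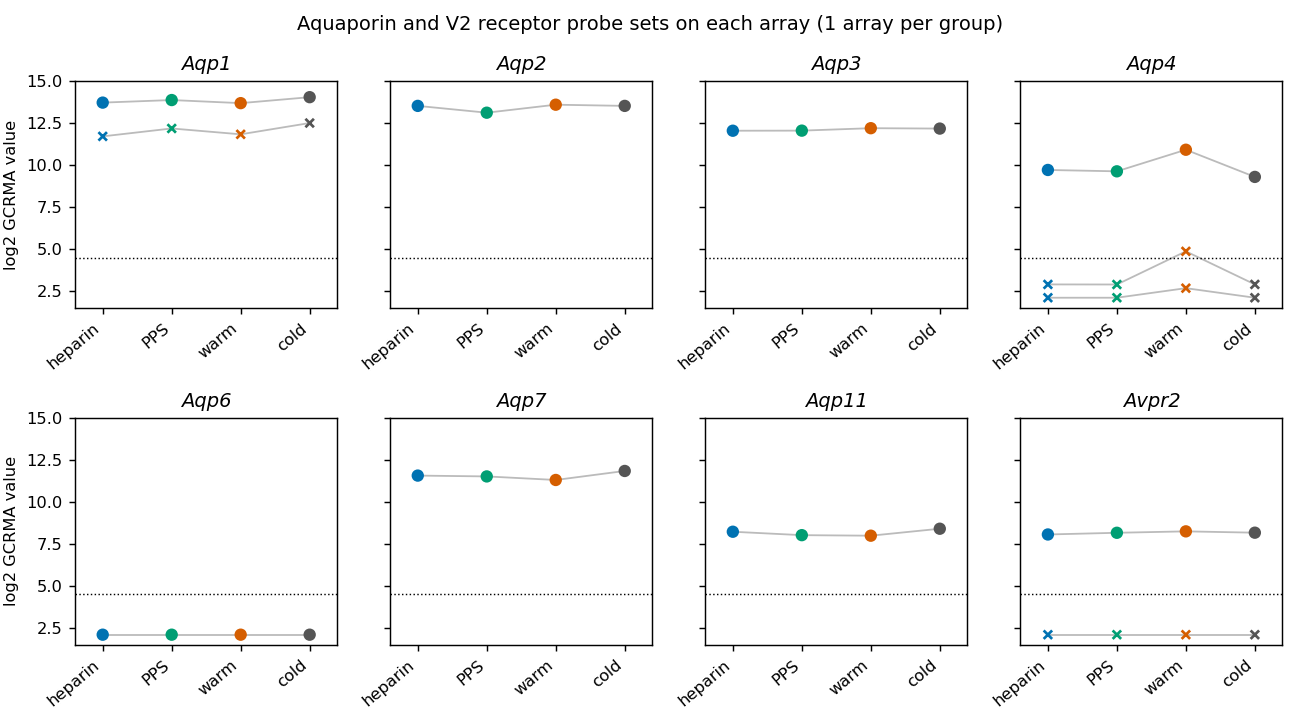
Log2 GCRMA value (vertical axis) of every probe set of the 8 genes on the heparin, PPS, warm and cold arrays. Circles are the probe set used for the gene, crosses its other probe sets, grey lines join the values of 1 probe set, and the dotted line is the floor of 4.51. Aqp4 stands highest on the warm array in the probe set used, while its other probe sets lie below the floor or just above it. Aqp6 lies at 2.11 throughout.

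Aqp4, the basolateral water channel of principal cells, was the 1 member that differed by more than 2-fold between any pair of arrays. Its log2 value was 9.72 on the heparin array, 9.64 on the PPS array, 10.92 on the warm array and 9.30 on the cold array. It was thus high on the warm array, while the other 3 arrays lay within 0.41 of each other. Aqp2, Aqp3 and Avpr2, which work in the same cell, differed between the warm and the cold array by less than 0.1, and the proximal tubule genes Aqp1, Aqp7 and Aqp11 had lower values on the warm array, within the size limit.

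The arrays themselves were alike in distribution, with medians of all probe sets between 4.50 and 4.54, and between 9253 and 9303 genes were above the floor. The 24 probe sets of the poly-A controls, bacterial transcripts spiked into the RNA before labelling, set the cold array apart. Against the cold array their median difference was 1.28 with heparin, 1.10 with PPS and 1.25 for the warm array. Against the warm array it was 0.08 with heparin and -0.10 with PPS. For the 18 hybridisation controls the median was 0.44 for warm minus cold, and -0.28 with heparin and 0.17 with PPS against warm. The excess of the 3' over the 5' probe set of beta-actin, a measure of RNA quality, was 3.39 on the heparin, 3.19 on the PPS, 3.22 on the warm and 2.79 on the cold array. For GAPDH it was smaller, with 0.72 on the heparin, 0.81 on the PPS, 0.84 on the warm and 0.60 on the cold array. Centring each array on the poly-A controls moved the all-gene median of warm minus cold to -1.13, so that positive differences smaller than about this size turned negative. Perfusion and these array differences cannot be told apart in any comparison with the cold array. Most markers of the proximal tubule (15 of 16), principal cells (9 of 10) and podocytes (5 of 5) exceeded the floor in 1 array or more. So did 9393 of the 14217 genes, all 9 endothelial markers and all 8 smooth muscle and fibroblast markers. These counts alone therefore do not show the kidney origin.

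Warm was set against cold to ask which genes differ once cold storage is followed by warm oxygenated perfusion. Of the 7 members above the floor, 1 passed the size limit, against 3.64% of all 9393 genes analysed. The median difference of the 7 members was 0.02, beside -0.0032 for all genes. Aqp4, with 10.92 on the warm and 9.30 on the cold array, differed by 1.61 on the log2 scale, 3.06-fold, and after each array was centred on the poly-A controls the difference was 0.49. A difference at least this large in the same direction was found for 95 of the 9393 genes, and for 1.02% of the 1659 genes whose mean level lay within 0.5 of that of Aqp4.

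Besides the probe set used, 2 further ones bear the name Aqp4. The brighter of these was above the floor on the warm array only, with 4.88, against 2.92 on the heparin, 2.91 on the PPS and 2.92 on the cold array. Set against the floor, its warm value exceeded each of the others by at least 1.29-fold. The dimmest was below the floor on every array, with 2.69 on the warm array and 2.13 on the others. As deposited, all 3 probe sets were highest on the warm array. The 2 with low values, below the floor on the other arrays or on all of them, give no size for the difference. Nor are they a separate check of its direction.

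The other genes of the vasopressin-regulated path in principal cells gave small differences. Aqp2, the apical channel that vasopressin moves to the membrane, had 13.52 on the heparin, 13.12 on the PPS, 13.59 on the warm and 13.52 on the cold array. The heparin, warm and cold values lay close together and the PPS value was the lowest. Its warm minus cold difference was 0.07. Aqp3, a basolateral channel for water and glycerol, had 12.05 on the heparin, 12.05 on the PPS, 12.20 on the warm and 12.18 on the cold array. Its warm minus cold difference was 0.02 and its whole span over the arrays 0.15. Avpr2, the hormone's receptor, had 8.06 on the heparin, 8.16 on the PPS, 8.25 on the warm and 8.17 on the cold array, with a warm minus cold difference of 0.08. After centring on the poly-A controls, the warm minus cold differences of these 3 genes turned negative. The second Avpr2 probe set was at the lowest value of 2.11 on all 4 arrays.

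These differences were set beside those of 10 other principal cell markers, of which 9 were above the floor and Elf5 was below it on every array. The differences of these 9 in warm minus cold were all positive and within the size limit. Their median was 0.70 and their range 0.12 to 0.81, against a median of -0.0032 for all genes. The largest were Scnn1a, a subunit of the epithelial sodium channel (9.36 on the warm and 8.55 on the cold array), and Gata3, a transcription factor of the collecting duct (11.11 and 10.34). Each of the 9 differences was larger than those of Aqp2, Aqp3 and Avpr2, and smaller than that of Aqp4. The log2 of the summed level of the 9 markers was 14.22 on the heparin, 14.28 on the PPS, 14.54 on the warm and 14.08 on the cold array. In this sum, and in those of other lists below, the brightest probe sets weigh most, so it does not read all markers equally. In pooled whole-tissue RNA, more cells of a type and more RNA per cell cannot be told apart. Centred on the poly-A controls, the median of the list in warm minus cold turned to -0.43, over 10 genes since Elf5 then passed the floor. The part of principal cell content in the Aqp4 difference was not tested.

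Markers of other cell types also differed in warm minus cold, beside the principal cell markers and Aqp4. Smooth muscle and fibroblast markers had a median of -1.21, and -2.34 after centring on the poly-A controls, with 8 of 8 below 0 and 6 of 8 lower past the size limit, led by Col1a2 (-1.43), Pdgfrb (-1.35), Tagln (-1.31), Col1a1 (-1.29) and Dcn (-1.13). The log2 of their summed level was 11.65 on the heparin, 12.18 on the PPS, 11.39 on the warm and 12.48 on the cold array. Podocyte markers had a median of 0.95, and -0.18 after that centring, with 5 of 5 above 0 and 2 past the limit, Nphs1 (1.06) and Wt1 (1.01). The log2 of their sum was 12.16 on the heparin, 12.40 on the PPS, 12.56 on the warm and 11.75 on the cold array. Distal tubule and thick ascending limb markers had a median of 0.47, and -0.66 after it, with 6 of 6 above 0, the largest being Slc12a3 (0.71) and Cldn16 (0.51). Of 5 leukocyte markers on the array 3 were above the floor, with a median of 0.16, and -0.97 after it, Ptprc (0.23) and Csf1r (0.16) being the largest. The part of these cell types in the values of Aqp4 and the other members was not tested.

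**Figure D2:**
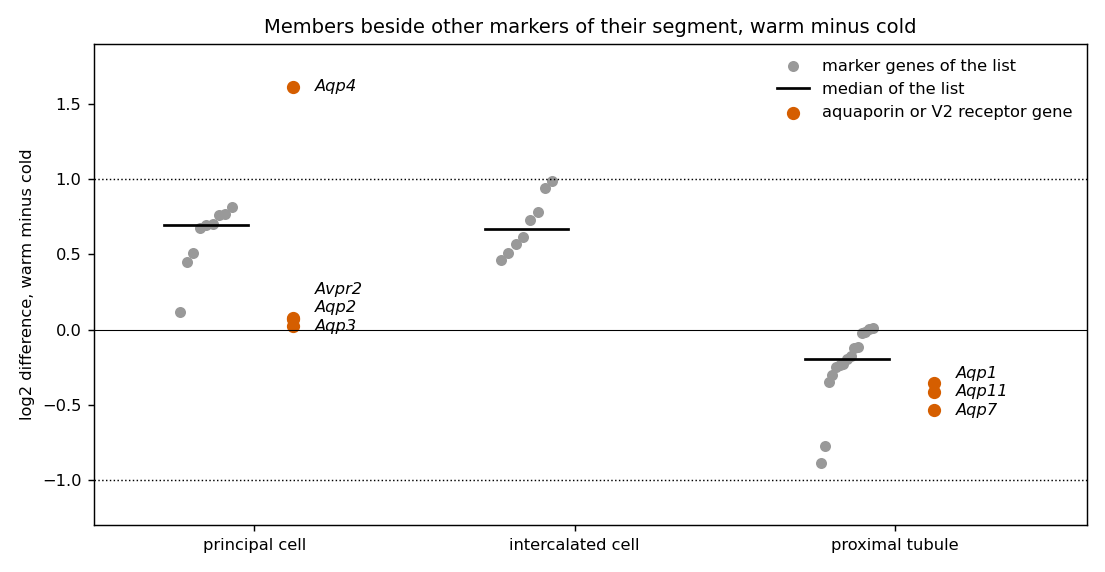
Log2 difference, warm minus cold (vertical axis), of marker genes of principal cells, intercalated cells and the proximal tubule (grey points, with a black line at the list's median) and of the aquaporin and V2 receptor genes of the same segment (orange). Dotted lines mark 2-fold. Aqp4 (1.61) lies above all 9 principal cell markers, while Aqp2 (0.07), Aqp3 (0.02) and Avpr2 (0.08) lie below all 9.

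Aqp6, which in the kidney lies in intracellular vesicles of intercalated cells, was at the lowest value of 2.11 on all 4 arrays, so no difference is given for it. Intercalated cell markers were measured well: all 8 on the array were above the floor, and all 8 differences in warm minus cold were positive and within the size limit (median 0.67). The largest differences were those of Foxi1, the transcription factor of these cells (0.99), and Atp6v1c2, a subunit of the proton pump (0.94). Centred on the poly-A controls, that median turned to -0.46.

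The 3 members of the proximal tubule gave negative differences in warm minus cold, none past the size limit. Aqp1, the constitutive water channel of this segment and of the thin descending limb, had 13.72 on the heparin, 13.87 on the PPS, 13.69 on the warm and 14.04 on the cold array. Its value was highest on the cold array, and its warm minus cold difference was -0.35. The second Aqp1 probe set had 11.71 on the heparin, 12.18 on the PPS, 11.83 on the warm and 12.50 on the cold array, and a warm minus cold difference of -0.67. Both probe sets were thus highest on the cold array and next highest on the PPS array.

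Aqp7, an aquaglyceroporin of the brush border of the straight proximal tubule, had 11.56 on the heparin, 11.51 on the PPS, 11.30 on the warm and 11.84 on the cold array. Its warm minus cold difference of -0.54 was the most negative among the members, and 4.88% of all genes had one at least as low. Aqp11, an aquaporin of the endoplasmic reticulum whose loss in mice gives cystic kidneys, had 8.23 on the heparin, 8.02 on the PPS, 7.99 on the warm and 8.41 on the cold array, a warm minus cold difference of -0.41. For all 3 genes the warm array was the lowest and the cold array the highest by the probe set used, and after centring on the poly-A controls the warm minus cold differences were more negative.

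Of 15 proximal tubule markers above the floor, 13 had lower values on the warm than on the cold array, all within the size limit. Their median was -0.20, and -1.32 after centring on the poly-A controls. The largest differences were those of Slc5a2, the SGLT2 glucose transporter (-0.89), and Slc7a7, an amino acid carrier (-0.78). As low as Aqp7 or lower were 2 of these 15 markers, which were also the 2 as low as Aqp1 or Aqp11. The log2 of the summed level of the 15 markers was 17.94 on the heparin, 18.01 on the PPS, 17.95 on the warm and 18.10 on the cold array. Aqp1 also serves red blood cells and the endothelium of the vasa recta. Hbb, a haemoglobin chain, had 8.20 on the heparin, 9.22 on the PPS, 8.71 on the warm and 9.85 on the cold array. Like Aqp1, it was highest on the cold and next highest on the PPS array, and globin genes have near-identical copies. Of the other 3 red blood cell markers on the array, Alas2 and Epb42 were below the floor on all 4 arrays, and Slc4a1, which intercalated cells also express, had 10.11 on the heparin, 10.01 on the PPS, 10.57 on the warm and 10.00 on the cold array. The median of 9 endothelial markers in warm minus cold was 0.33, and -0.80 after centring on the poly-A controls, and the most negative of them was Vwf (-0.95), which passed the size limit with heparin against cold (-1.59). The part of blood left in the kidneys in the Aqp1 values was not tested. Aqp7 is also a gene of fat cells, and of 6 fat cell markers Adipoq, Plin1, Lep and Cfd were below the floor on every array. The other fat cell markers, Fabp4 and Car3, had their lowest values on the heparin array (8.42 for Fabp4 and 6.49 for Car3) and passed the size limit there against warm (-1.28 for Fabp4 and -1.78 for Car3). In warm minus cold, Car3 was lower (-0.50), as Aqp7 was (-0.54), and Fabp4 was higher (0.64). The part of fat cells in the Aqp7 values was not tested.

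Heparin was set against warm to ask what this supplement, under study for anti-inflammatory properties, changes in warm-perfused kidneys. Of the 7 members, 1 passed the size limit, against 1.86% of all genes. Aqp4, with 9.72 on the heparin and 10.92 on the warm array, was 2.30-fold lower (log2 difference -1.20), and -1.33 after centring on the poly-A controls. A difference at least as low was found for 94 of 9393 genes. The other 6 members differed by between -0.19 (Avpr2) and 0.26 (Aqp7). The median of the 7 was -0.07, beside 0 for all genes. Of the 9 principal cell markers, 8 had lower values on the heparin array, and Scnn1a (-1.07) was past the size limit. Their median was -0.53. No marker of that list was as low as Aqp4, and 8 of the 9 were lower than Aqp2, Aqp3 and Avpr2. All 8 intercalated cell markers had lower values as well, with a median of -0.65, and proximal tubule markers had a median of 0.0049.

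PPS was set against warm in the same way, and 1 of the 7 members passed the size limit, against 2.23% of all genes. Aqp4, with 9.64 on the PPS and 10.92 on the warm array, was 2.43-fold lower (log2 difference -1.28), and -1.20 after centring on the poly-A controls. Aqp2, with 13.12 on the PPS and 13.59 on the warm array, had the next largest difference, -0.48, which is 1.39-fold and within the size limit. A difference as low as that of Aqp2 was found for 5.06% of all genes and for 2.18% of the 275 genes within 0.5 of its mean level. The other 5 members differed by between -0.15 (Aqp3) and 0.21 (Aqp7), and the median of the 7 was -0.08. Principal cell markers had a median of -0.46, with 8 of 9 below 0 and 1 past the size limit, Tmem45b (-1.07), a membrane protein. Intercalated cell markers had a median of -0.40, with 8 of 8 below 0, and proximal tubule markers one of 0.09. The smooth muscle and fibroblast list had 0.74 as its median, and 3 of its 8 genes were higher past the size limit, Col1a1 (1.70), Col1a2 (1.47) and Col3a1 (1.24). With heparin against warm, 7 of these 8 genes were above 0 as well, with a median of 0.46 and none past the limit. The 2 comparisons with the warm array and that of warm with cold share that 1 array, so the 3 values of Aqp4 are not independent of each other.

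**Figure D3:**
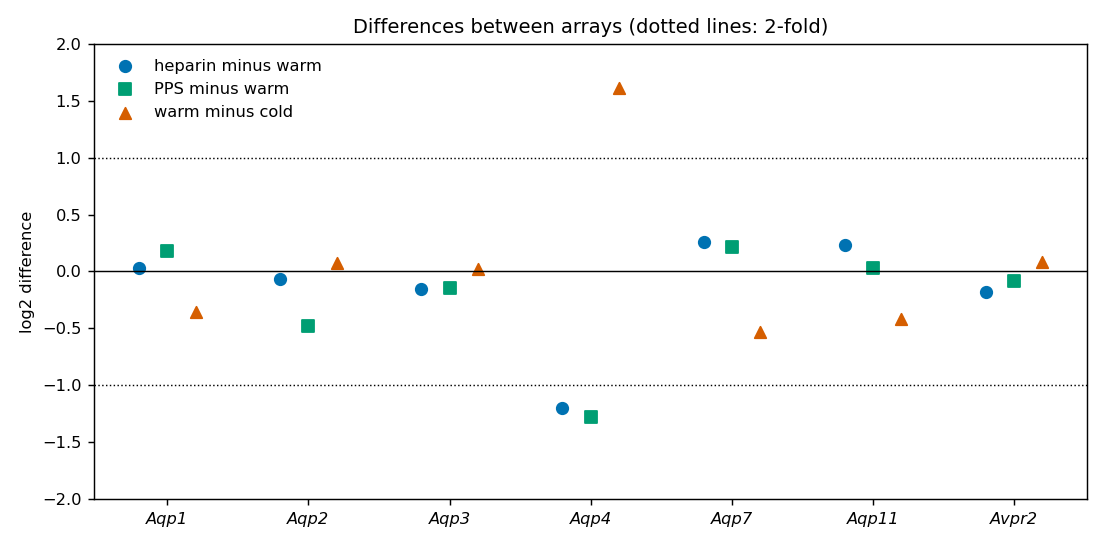
Log2 difference (vertical axis) of the 7 members above the floor with heparin against warm (circles), with PPS against warm (squares) and with warm against cold (triangles), each from 1 array against 1. Dotted lines mark 2-fold. Aqp4 alone lies beyond them, at -1.20, -1.28 and 1.61.

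Heparin and PPS were then set against each other. None of the 7 members passed the size limit, against 0.49% of all genes. Aqp2 had the largest difference, 0.40, with 13.52 with heparin and 13.12 with PPS, 1.32-fold, and 0.20 after centring on the poly-A controls. Of the 275 genes near its level, Aqp2 itself included, 0.727% had a difference as large in that direction as deposited. None of the 9 principal cell markers did. Aqp4 differed by 0.08. Aqp1 differed by -0.15 by the probe set used and by -0.47 by its other probe set, and Aqp11 by 0.20, while Aqp3, Aqp7 and Avpr2 lay between -0.10 and 0.05. After centring on the poly-A controls, 3 of the 7 differences changed sign. With 1 pool per supplement, an effect of the supplement and the make-up of the pool cannot be told apart.

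The supplemented arrays were last set against the cold array. None of the 7 members passed the size limit with heparin (2.09% of all genes did) or with PPS (1.82%). Aqp4 differed from its cold value by 0.41 with heparin and by 0.33 with PPS, and after centring on the poly-A controls by -0.84 and -0.72, so that the cold array was then no longer the lowest. Aqp2 differed by less than 0.01 with heparin and by -0.40 with PPS. Aqp1 gave -0.32 with heparin and -0.17 with PPS, Aqp7 gave -0.27 and -0.32, and Aqp11 gave -0.18 and -0.38. The proximal tubule members thus had their highest value on the cold array, above all 3 warm-perfused arrays, except that after centring on the reference genes Aqp11 with heparin (0.04) and Aqp1 with PPS (0.03) lay above it. Of the 7 members, 5 had a negative difference with heparin and 6 with PPS, against 7 and 7 after centring on the poly-A controls and 2 and 3 after centring on the reference genes. Of all 9393 genes, 4588 had a negative difference with heparin and 4787 with PPS as deposited.

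Among genes that were not members, those with values most like Aqp4 over the 4 arrays were sought by the root mean square difference of values centred on each gene's mean. Of 418 genes that were above the floor on every array and spanned at least 1 log2 unit, the nearest was Rasl11b, a Ras-like small GTPase, at 0.06. It had 6.09 on the heparin, 6.09 on the PPS, 7.23 on the warm and 5.78 on the cold array. Dusp5, a nuclear phosphatase of ERK kinases, followed at 0.09 with 9.57 on the heparin, 9.40 on the PPS, 10.57 on the warm and 8.94 on the cold array. The third was Klf5, a zinc finger transcription factor, at 0.10 with 5.78 on the heparin, 5.66 on the PPS, 7.08 on the warm and 5.20 on the cold array. All 3 were highest on the warm and lowest on the cold array as deposited, an order that follows from choosing them by their likeness to Aqp4. After centring on the poly-A controls the warm array was still the highest, by 0.33 for Rasl11b, 0.50 for Dusp5 and 0.75 for Klf5 over the cold array, which was then no longer the lowest. The likeness rests on 4 arrays and is a description. No other member spanned 1 log2 unit.

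**Figure D4:**
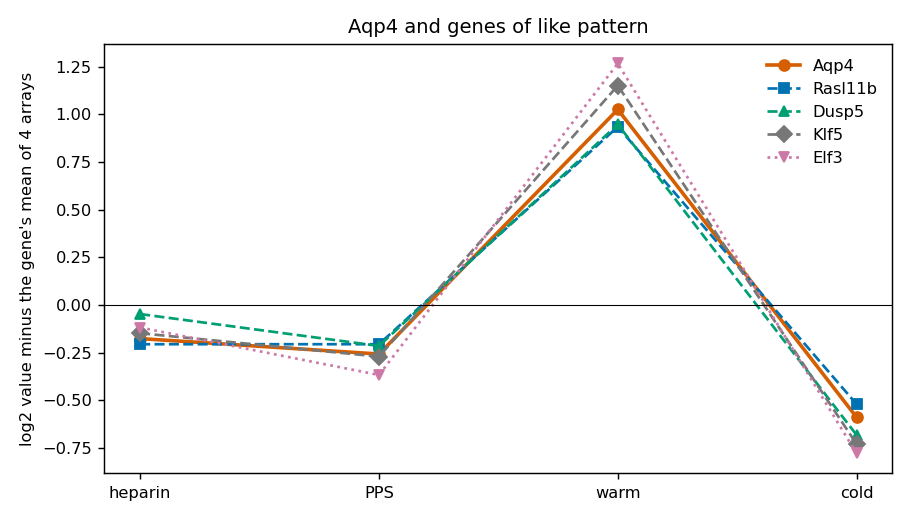
Log2 value minus the gene's mean over the 4 arrays (vertical axis) for Aqp4, for the 3 genes of most like pattern (Rasl11b, Dusp5 and Klf5) and for Elf3, on the heparin, PPS, warm and cold arrays, 1 array each. All 5 genes are highest on the warm array and, as deposited, lowest on the cold array, which is not the lowest after centring on the poly-A controls.

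Transcription factors of collecting duct cells were read as a list of 8, of which 6 are on the array and 5 were above the floor. Their differences in warm minus cold were all positive, with 0.72 as the median, which turned to -0.38, over 6 genes with Elf5, after centring on the poly-A controls. Gata3 and Elf5 are also in the list of principal cell markers above, so these lists are not separate readings. The 1 gene past the size limit was Elf3, an epithelial ETS factor that activates the Aqp2 promoter in mouse collecting duct cells. Elf3 had 8.68 on the heparin, 8.43 on the PPS, 10.07 on the warm and 8.02 on the cold array. Its warm minus cold difference was 2.04, 4.13-fold, and 0.92 after centring on the poly-A controls. Against the warm array it was 2.61-fold lower with heparin and 3.10-fold lower with PPS, and as deposited the order of the arrays was that of Aqp4. After centring on the poly-A controls, heparin minus PPS was 0.04 for Elf3 and -0.13 for Aqp4, so that the order was no longer shared. Aqp2 itself did not share that order, as its lowest value was on the PPS array. Gata2, Gata3, Tfap2b and Pax2 stayed within the size limit in all 6 comparisons.

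The signalling genes between the V2 receptor and its targets were read as a list of 22, of which 17 were above the floor. As deposited, none passed the size limit in warm minus cold (median -0.05), nor against the warm array with heparin (-0.04) or PPS (-0.10). Centred on the poly-A controls, the median of the list in warm minus cold was -1.18, beyond the limit. The largest difference in warm minus cold was that of Pde4b, a phosphodiesterase that degrades cyclic AMP, at 0.98, with 8.88 on the warm and 7.90 on the cold array, and -0.15 after centring on the poly-A controls. Creb1, the factor that binds the cyclic AMP response element, had 8.19 on the heparin, 7.997 on the PPS, 8.56 on the warm and 9.22 on the cold array. It was highest on the cold array, and against that array it passed the size limit with heparin (-1.03) and with PPS (-1.22). After centring on the poly-A controls these 2 differences were -2.29 and -2.27. Centring on the reference genes moved the all-gene median with heparin against cold up to 0.22, a shift that takes Creb1 inside the limit there. Adcy6, an adenylyl cyclase of principal cells, had 9.57 on the heparin, 9.68 on the PPS, 9.99 on the warm and 9.52 on the cold array. The other vasopressin receptors, Avpr1a and Avpr1b, and the hormone's own gene Avp were below the floor on all 4 arrays.

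Genes that move aquaporin-2 to and from the membrane or take part in its turnover were read as a list of 28, and all 25 on the array were above the floor. As deposited, none passed the size limit in warm minus cold, where the median was -0.10. Centred on the poly-A controls, that median was -1.22, beyond the limit. Against the warm array, none passed as deposited with heparin or with PPS, where the medians were -0.05 and -0.0085. The largest difference in warm minus cold was that of Mal, a membrane protein of apical transport that binds aquaporin-2, with 11.22 on the heparin, 11.46 on the PPS, 11.98 on the warm and 11.33 on the cold array. As deposited, its value was highest on the warm array (warm minus cold 0.66), a difference that turned negative after centring on the poly-A controls. Stx3, a syntaxin of the apical membrane, had the most negative one, -0.53. Vamp2, the vesicle protein of aquaporin-2 vesicles, differed by -0.04, and Nedd4l, a ubiquitin ligase, by 0.03.

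The remaining members of the family, Aqp5, Aqp8, Aqp9, Aqp12a and Mip, the lens aquaporin, were at the lowest value of 2.11 on all 4 arrays with their 1 probe set each. Such a value means no specific signal above the modelled background on these arrays and gives no level.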

How the data were processed

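Messenger RNA of pooled kidneys was measured on 4 Affymetrix rat arrays, 1 per group, from 6 ug of total RNA each, per the labels' protocols. The authors deposited GCRMA values per probe set, per the submitters' processing notes, with no version given in the sources used here. They are on a log2 scale by their range, 2.11 to 16.4, as no header of the deposited file states it. Of 31099 probe sets, 57 are array controls. The platform annotation gives 1 gene symbol to 20832 and several to 436, which were not used. Symbols were updated through Entrez identifiers to RefSeq (GRCr8), in which 20758 probe sets were found. Of several probe sets of a gene, the one brightest on average was used. Values under the 50th percentile (4.51) were raised to it, and the 9393 genes above it on at least 1 array were analysed, 9166 of them above it on all 4.

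Differences are array minus array, with a size limit of 2-fold and no test, since each group has 1 array, whose number limits the precision. The counting of genes past the limit was tested on simulated data with an assumed spread, which does not calibrate the limit for real arrays. The members, the gene lists, the limit and the rule for named genes were chosen with earlier results of these data known. All members and other aquaporins are named. Of other lists, the genes past the limit (at most 5 per comparison) or else the 2 with the largest differences are named. The second kind is mostly given for warm minus cold only. Adcy6, Nedd4l and Slc4a1 meet this rule only in other comparisons. Vamp2, Nfat5, Pax2 and Slc14a1 do not meet it. These genes were chosen after their values were seen. List genes below the floor on every array are also named outside the rule (Elf5, Alas2, Epb42, Adipoq, Plin1, Lep, Cfd, Avpr1a, Avpr1b and Avp). The motif GACGTCA was added after the sequence had been seen. Alternatives were another floor, none, the median of all probe sets, 3 scalings and a limit of 1.5-fold. Python 3.11.15, pandas 2.3.3 and numpy 2.4.6 were used. No protein sequences were used here.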

Additional observations from a re-analysis of the deposited data

How the results depend on the processing

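With 1 array per group, no alternative adds a replicate, and no paired analysis was possible because each group has 1 array. Without a floor, with a floor at the 60th percentile (6.73), and with arrays centred on all genes or on the reference genes, the number of members past the size limit was unchanged in all 6 comparisons, as it was with a limit of 1.5-fold. With the median of all probe sets per gene, 0 members passed in warm minus cold, and against the warm array 0 passed with heparin and 0 with PPS, since the median probe set of Aqp4 lies near the floor (0.37 in warm minus cold). Centred on the poly-A controls, 6 members were lower past the limit for warm against cold, 6 with heparin and 6 with PPS, because that scaling moved the median of all genes to -1.13, -1.25 and -1.05. Against the warm array, Aqp4 stayed past the limit with heparin and with PPS under each of the 3 scalings, between -1.33 and -1.12. Centring on the reference genes moved the all-gene median against cold to 0.14 for warm, 0.22 with heparin and 0.19 with PPS, and against the cold array it turned the sign of 3 members within the limit with heparin and of 3 with PPS. The alternative probe sets of Aqp1 and Aqp4 were chosen after seeing the data.

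Counts over all genes moved more. With the floor at the 60th percentile, 108 genes passed in heparin minus warm (175 as reported), 136 in PPS minus warm (209), 20 in heparin minus PPS (46), 119 with heparin against cold (196) and 90 with PPS against cold (171). Centred on the poly-A controls, 6707 passed in warm minus cold (342 as reported), 7884 with heparin against cold and 5962 with PPS against cold, of which 71, 34 and 28 were higher. Centred on the reference genes, 314 were higher and 79 lower in warm minus cold (233 and 109 as reported), 174 and 55 with heparin against cold (110 and 86) and 159 and 35 with PPS against cold (97 and 74). In heparin minus PPS, 9 were higher and 52 lower after centring on the poly-A controls (18 and 28). At 1.5-fold between 252 and 1020 genes passed.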

Other observations

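Genes of the osmotic response, which protect cells of the inner medulla as water is drawn out of the collecting duct, and urea transporters were read as a list of 9, of which 8 were above the floor on at least 1 array. In warm minus cold all stayed within the size limit. The median was 0.27 (-0.78 after centring on the poly-A controls), and the largest difference was that of Slc5a3, the inositol carrier (0.83). Slc14a1, above the floor on the warm array only (4.72), entered this median with a positive difference (0.21) that the floor sets. Akr1b1, the aldose reductase that makes sorbitol, had 10.23 on the heparin, 10.23 on the PPS, 11.525 on the warm and 11.56 on the cold array. It was therefore lower with both supplements than on either of the other arrays, 2.46-fold against warm for each supplement (-1.43 with heparin and -1.22 with PPS on the log2 scale after centring on the poly-A controls), and was the 1 gene of the list past the size limit there. It belongs to a gene family with closely similar members, so its probes may also bind their transcripts. Slc14a2, the urea transporter that vasopressin regulates in the inner medullary collecting duct, had 9.31 on the heparin, 9.04 on the PPS, 9.93 on the warm and 9.33 on the cold array. As deposited it was highest on the warm array, as Aqp4 was. Centring on the poly-A controls, which moved the all-gene median of warm minus cold to -1.13, turned the Slc14a2 difference (0.60) negative. That of Aqp4 stayed positive. Nfat5, the factor of the osmotic response, had 11.69 on the heparin, 11.73 on the PPS, 11.96 on the warm and 11.62 on the cold array, and its differences stayed within the size limit.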
